A study of Mus musculus with 8 samples.

Results

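The genes described here are 46 genes of the G1/S transition, the E2F network and DNA replication, given as a list of names and found on the array by the gene name of each probe, with older names of the Mcm genes counted. They had 74 probes, and all 46 were among the 15097 genes and unnamed transcripts (features) that were tested, 0.305% of them. Gene expression was measured in 4 samples of CT26-FL3 and 4 samples of CT26 on 1-colour Agilent arrays. CT26, a mouse colon cancer line labelled as a poor source of liver metastases, is the parent, and CT26-FL3 was derived from it by repeated selection of liver lesions, which were digested and briefly cultured before RNA was taken. Both lines carry the strain label Balb/c and were grown in the same serum-containing medium without a treatment, and the labels do not say whether CT26-FL3 is 1 clone. Where nothing says that the 4 samples of a line were separate cultures, p-values reflect no more than the spread among these arrays, and that spread may be technical.

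The G1/S transition commits a cell to copy its DNA. In quiescent and early G1 cells the pocket proteins, Rb1 and its relatives, hold E2F transcription factors in check. D-type cyclins with Cdk4 or Cdk6, and then E-type cyclins with Cdk2, phosphorylate the pocket proteins, and released E2F factors switch on genes for origin licensing, the replicative helicase, polymerases and deoxynucleotide supply. Many of these genes carry an E2F motif close to their start site.

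The lines correlated at r from 0.982 to 0.984 across features, against 0.996 to 0.998 between arrays of the same line (features are not independent replicates). Of 10 colon epithelial markers, 4 were tested and all 4 were higher in CT26-FL3, while Epcam, Cdh1, Vil1, Lgr5, Cdx1 and Krt19 exceeded the detection limit on 0 of the 8 arrays. Of 8 tested fibroblast markers out of 10, 2 were higher and 5 lower, and their summed relative intensity was 25283 to 27371 in CT26-FL3 and 24860 to 29066 in CT26. Most of that sum was Col1a2 (19666 to 21738 in CT26-FL3 and 18822 to 23056 in CT26), which did not pass. The largest log2 differences among these markers were 3.32 for Dcn on the higher side and -0.76 for Col1a1 on the lower. Of 6 tested macrophage markers out of 10, 2 were higher and 2 lower, with sums of 393 to 432 in CT26-FL3 and 952 to 1008 in CT26, and Ptprc, Adgre1, Clec4f and Itgam exceeded the limit on 0 arrays. Most of the macrophage sum was Cd14 (309 to 345 in CT26-FL3 and 885 to 940 in CT26). Cd14 and Lyz2 were lower in CT26-FL3, while Cd68 and Mrc1 were higher. Lyz2 exceeded the limit on 4 CT26 arrays and 0 CT26-FL3 arrays, so it was tested only because of its level in CT26. Sums were 57 to 66.5 in CT26-FL3 and 48.9 to 53.5 in CT26 for endothelial markers (2 higher and 0 lower of 3 tested out of 7; Pecam1, Cdh5 and Kdr not above the limit). They were 18.4 to 24.4 and 17.9 to 22.4 for T, NK and B cell markers (0 higher and 0 lower of 3 tested out of 8, with 0 at an unadjusted limma p under 0.05; Cd3d, Cd8a, Ncr1 and Ms4a1 not above), and 19.8 to 21.1 and 17.7 to 21.4 for hepatocyte markers (1 higher and 0 lower of 2 tested out of 8; Alb, Apoa2, Ahsg and Cps1 not above), in CT26-FL3 and CT26 in that order. The endothelial marker Tie1, counted as higher, exceeded the limit on 4 CT26-FL3 arrays and 0 CT26 arrays, so it was tested only because of its level in CT26-FL3. The part of all these cell type markers in the results below was not tested.

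Promoter windows are shown for the 4 members with the largest differences past the threshold that have an entry in the RefSeq promoter table of GRCm38.p6, since an E2F site near the start is what ties many of these genes to one network. Each window runs from 250 bases before to 50 bases after an annotated start, 5′ to 3′ on the gene's strand, and capitals mark the E2F motif. The motif was searched on both strands as TTTCCCGC, TTTGGCGC, TTTCGCGC or TTTGCCGC.
E2f2, chr4:136172024-136172323, + strand: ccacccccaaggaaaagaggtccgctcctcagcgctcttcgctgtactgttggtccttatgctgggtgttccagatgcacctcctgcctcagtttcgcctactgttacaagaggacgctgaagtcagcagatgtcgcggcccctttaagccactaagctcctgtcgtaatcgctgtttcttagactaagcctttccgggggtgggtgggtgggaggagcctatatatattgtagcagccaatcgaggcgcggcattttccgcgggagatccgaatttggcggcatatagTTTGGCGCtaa
Orc1, chr4:108579204-108579503, + strand: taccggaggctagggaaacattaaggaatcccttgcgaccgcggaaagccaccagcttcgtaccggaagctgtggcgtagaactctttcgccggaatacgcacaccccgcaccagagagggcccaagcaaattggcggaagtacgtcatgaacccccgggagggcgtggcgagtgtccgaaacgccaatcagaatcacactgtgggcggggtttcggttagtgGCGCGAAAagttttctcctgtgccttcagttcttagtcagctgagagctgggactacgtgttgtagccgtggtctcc
Orc6, chr8:85299382-85299681, + strand: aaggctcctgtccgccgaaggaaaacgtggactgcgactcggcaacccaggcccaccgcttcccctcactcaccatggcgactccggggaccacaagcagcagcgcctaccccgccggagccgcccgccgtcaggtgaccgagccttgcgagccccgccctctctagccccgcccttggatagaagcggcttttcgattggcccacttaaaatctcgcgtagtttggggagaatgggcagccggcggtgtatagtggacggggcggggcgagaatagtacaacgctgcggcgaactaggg
Cdc6, chr11:98907901-98908200, + strand: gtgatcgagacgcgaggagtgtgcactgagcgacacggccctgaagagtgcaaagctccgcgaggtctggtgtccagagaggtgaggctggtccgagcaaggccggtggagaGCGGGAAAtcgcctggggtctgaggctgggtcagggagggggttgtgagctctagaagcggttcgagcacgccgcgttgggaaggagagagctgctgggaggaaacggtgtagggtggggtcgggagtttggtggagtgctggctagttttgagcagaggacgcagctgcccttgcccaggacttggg

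The match begins 39 bases after the start in E2f2, 27 bases before it in Orc1 and 138 bases before it in Cdc6, and the Orc6 window holds none of these letters. Among the 35 members with an entry, 15 (42.9%) had the motif in at least 1 listed window, against 575 of 17492 protein-coding genes (3.29%) and 744 of all 32851 windows (2.26%). It was present for 7 of 16 members that fell (43.8%), 1 of 3 that rose (33.3%) and 7 of 16 that did not pass (43.8%). Among the helicase genes the windows of Mcm3, Mcm5, Mcm6 and Mcm7 held it and those of Mcm2, Mcm10 and Cdc45 did not. A match is a description of letters and not of a bound site. E2f4, E2f5, Rb1, Ccnd1, Ccnd2, Ccne2, Gmnn, Mcm4, Gins1, Gins2 and Pole had no entry.

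Most members that differed were lower in CT26-FL3, by small amounts, and E2f2 and Ccne2 stood out with decreases of over 2-fold. In all, 21 of the 46 members fell, 6 rose and 19 did not pass the threshold (limma, adjusted p under 0.05 over all features). Thus 58.7% of members passed, against 49.5% of all features, 45.7% fell against 25.3%, and 13% rose against 24.1%. The arrays of the lines did not overlap for 29 members (63%), 21 lower and 8 higher in CT26-FL3, against 47.4% of all features (24.2% lower and 23.2% higher). The median log2 fold change of the members, CT26-FL3 over CT26, was -0.13, and that of all features was -0.01. Among called genes the median size was 0.28 for members and 0.37 for all features, and 2 of the 27 called members changed at least 2-fold. In bulk RNA a smaller share of cells in a phase of the cycle and less RNA per cell cannot be told apart. Levels are given as relative intensity, on a scale where each array's 75th percentile is 100, and levels of different genes are not compared because they come from different probes.

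**Figure D1:**
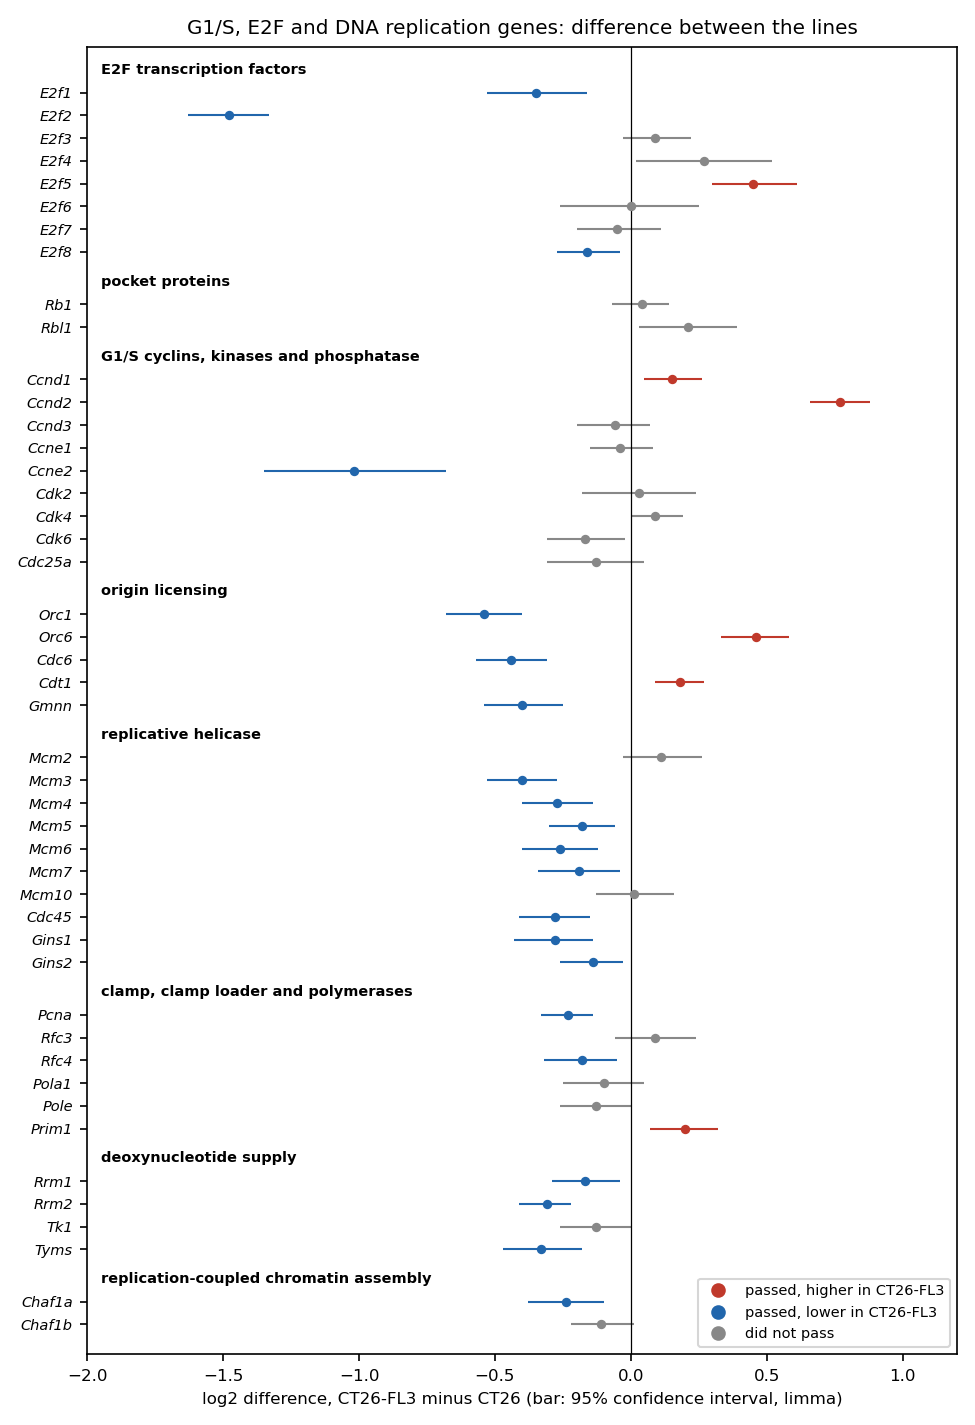
Log2 difference between CT26-FL3 and CT26 (x axis) for each of the 46 members (y axis), grouped by role, with the 95% confidence interval from limma as a bar (4 arrays per line). Values to the left of 0 are lower in CT26-FL3: E2f2 (-1.48) and Ccne2 (-1.02) lie farthest left, Ccnd2 (0.77) farthest right, and most helicase genes lie just left of 0.

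Of the 8 E2F transcription factor genes, 3 fell, 1 rose and 4 did not pass. The share that passed (50%) was near the 49.5% of all features, of which 25.3% were lower and 24.1% higher. E2f2, one of the activator E2Fs, had relative intensities of 72.3, 66.5, 66.9 and 63.8 in CT26-FL3, against 174, 179, 200 and 200 in CT26. The lines lay far apart, and E2f2 was 2.79-fold lower in the metastatic line (-1.48 on the log2 scale, SE 0.06, with 4 arrays of each line, limma adjusted p = 4.07e-07). E2f1, the activator that also induces apoptosis genes, had 335, 355, 378 and 360 in CT26-FL3 and 436, 430, 534 and 421 in CT26. It fell by 0.35 (SE 0.08, adjusted p = 0.0076) on its brighter probe, with CT26 replicate 3 standing above the other CT26 arrays (-0.27 without it, adjusted p = 0.00554). Its other probe differed by -0.06 (adjusted p = 0.502 among the 23068 probes). E2f5, a repressor that works with the pocket proteins, had 157.1, 177.2, 171.4 and 163.5 in CT26-FL3, against 122.3, 132.2, 110 and 124.6 in CT26. All 4 CT26-FL3 arrays were higher, by 0.45 on the log2 scale on each of its 2 probes above the limit (SE 0.07 on the brighter, adjusted p = 0.000578).

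E2f8, an atypical repressor without a pocket protein site, had 195, 217, 214 and 192 in CT26-FL3 and 229, 225, 227 and 227 in CT26. It fell by 0.16 (SE 0.05, adjusted p = 0.0368), which passed in 10 of the 23 alternative settings, and its dim second probe differed by 0.32 in the other direction (adjusted p = 0.106), so that the mean of the 2 probes gave 0.08. The activator E2f3 (difference 0.09, 95% interval -0.03 to 0.22), the repressor E2f6 (-0.00, -0.26 to 0.25) and the atypical repressor E2f7 (-0.05, -0.20 to 0.11) did not pass. E2f4, a repressor that acts with pocket proteins, had a difference of 0.27 (0.02 to 0.52, adjusted p = 0.0742), with CT26-FL3 arrays from 69.4 to 99.5 overlapping CT26 arrays from 64.3 to 74.5. The pocket protein gene Rb1 differed by 0.04 (-0.07 to 0.14). Rbl1, which encodes p107, had 416, 411, 441 and 427 in CT26-FL3 and 376, 409, 372 and 315 in CT26; the arrays did not overlap, but the difference of 0.21 (0.03 to 0.39) missed the threshold (adjusted p = 0.0516) and passed in 7 of the 23 alternative settings.

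**Figure D2:**
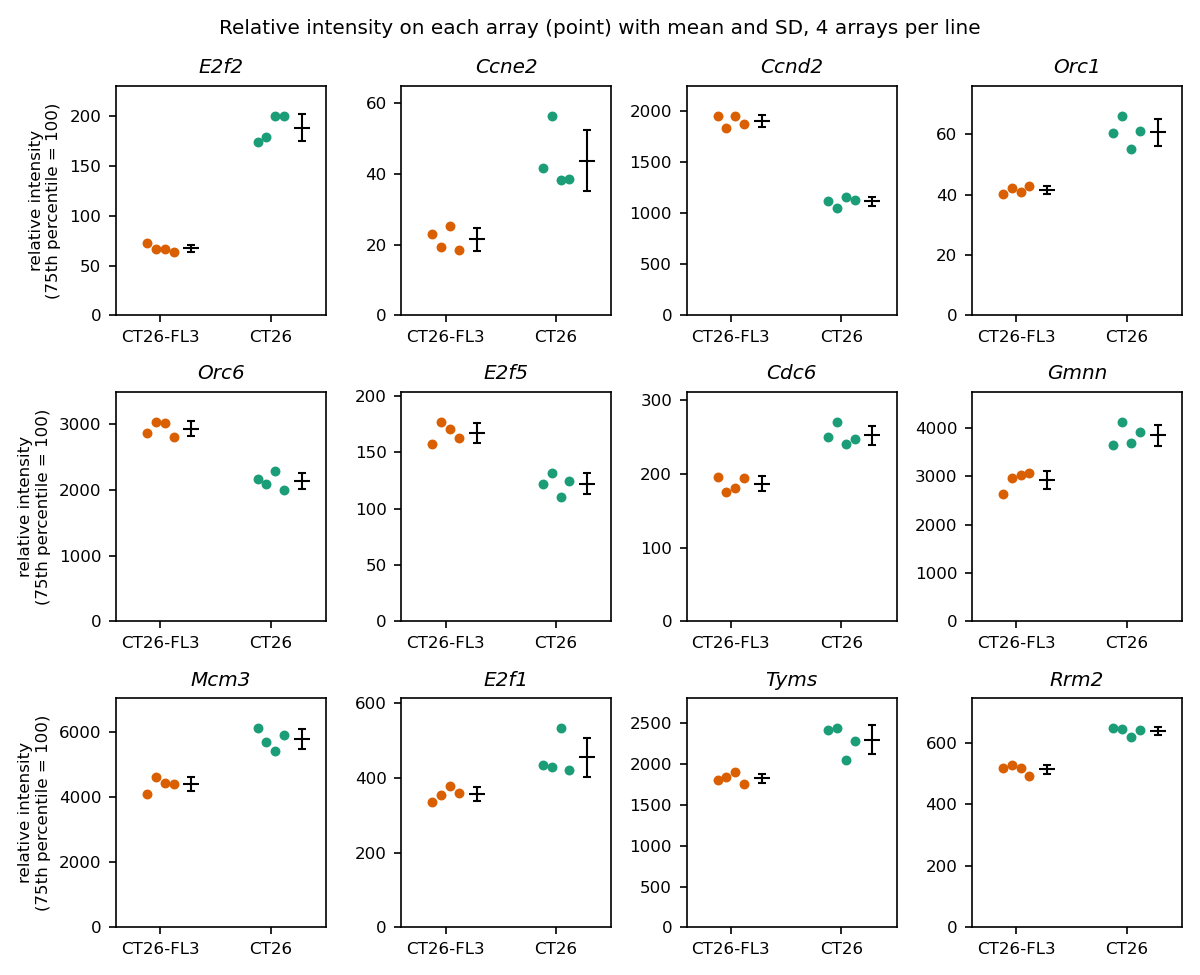
Relative intensity (y axis, from 0, each array's 75th percentile set to 100) on the 4 CT26-FL3 arrays and the 4 CT26 arrays (x axis) for the 12 members with the largest called differences; points are arrays, and the bar beside them is the mean with its SD. In every panel the arrays of one line lie apart from those of the other, as they did for all called members and for 47.4% of all features. E2f2 lies at 63.8 to 72.3 in CT26-FL3 and 174 to 200 in CT26.

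Of the 9 genes of G1/S cyclins, their kinases and a phosphatase, 2 rose, 1 fell and 6 did not pass. Thus 33.3% passed, against 49.5% of all features (25.3% lower and 24.1% higher). The genes that rose encode D-type cyclins, and the gene that fell encodes an E-type cyclin. Ccnd2, a mitogen-responsive partner of Cdk4 and Cdk6, had 1948, 1827, 1945 and 1866 in CT26-FL3, against 1118, 1045, 1159 and 1129 in CT26. It was 1.7-fold higher (log2 0.77, SE 0.05, adjusted p = 3.62e-06), and its other probes gave 0.78 and 0.64. Ccnd1 had 1079, 1187, 1129 and 1073 in CT26-FL3 and 1021, 1010, 977 and 1003 in CT26, a rise of 0.15 (SE 0.05, adjusted p = 0.0241) that passed in 13 of the 23 alternative settings, while Ccnd3 differed by -0.06 (-0.20 to 0.07).

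Ccne2, which activates Cdk2 at the start of S phase, had 23, 19.3, 25.3 and 18.4 in CT26-FL3, against 41.6, 56.4, 38.4 and 38.6 in CT26. Every CT26-FL3 array was lower, although CT26 replicate 2 stood above its group, and Ccne2 was 2.02-fold lower (log2 -1.02, SE 0.15, adjusted p = 0.000533; -1.07 on its second probe). Its relative Ccne1 averaged 1777 ± 48.9 in CT26-FL3 and 1824 ± 86.8 in CT26 (SD, n = 4 each), a difference of -0.04 (-0.15 to 0.08). The kinase genes Cdk2 (0.03, -0.18 to 0.24) and Cdk4 (0.09, -0.00 to 0.19) and the phosphatase gene Cdc25a, which removes inhibitory phosphates from Cdk2 (-0.13, -0.31 to 0.05), did not pass on their brightest probes. The dimmer Cdc25a probe was lower (-0.36, adjusted p = 0.022 among the kept probes). Cdk6 had a difference of -0.17 (-0.31 to -0.02, adjusted p = 0.0551) on its brightest probe, while a dimmer probe gave 0.20 (adjusted p = 0.014) and the dimmest -0.11. The direction of Cdk6 therefore depended on the probe.

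All 5 members of origin licensing passed, 3 lower and 2 higher in CT26-FL3, where 49.5% of all features passed (25.3% lower and 24.1% higher). Orc1, the largest subunit of the origin recognition complex, had 40.2, 42.3, 41 and 43 in CT26-FL3, against 60.3, 66.1, 55.1 and 61 in CT26. It was 1.45-fold lower (log2 -0.54, SE 0.06, adjusted p = 0.000116). Orc6, another subunit of the same complex, went the other way, with 2874, 3037, 3016 and 2812 in CT26-FL3 and 2174, 2092, 2291 and 2000 in CT26, and was 1.37-fold higher (log2 0.46, SE 0.05, adjusted p = 0.000175). Cdc6, which loads the helicase together with Cdt1, had 196, 175, 180 and 194 in CT26-FL3, against 250, 270, 240 and 247 in CT26. The brighter probe fell by 0.44 (SE 0.06, adjusted p = 0.000303), while the dimmer one averaged 41.2 in CT26-FL3 and 41.5 in CT26.

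Cdt1, the other loading factor, had 5076, 5284, 5363 and 5115 in CT26-FL3, against 4555, 4536, 4684 and 4583 in CT26. Its rise of 0.18 (SE 0.04, adjusted p = 0.0051) was small, but no arrays overlapped. Gmnn encodes geminin, the protein that binds Cdt1 and blocks relicensing. It had 2640, 2963, 3019 and 3074 in CT26-FL3 and 3652, 4123, 3697 and 3905 in CT26, 1.32-fold lower (log2 -0.40, SE 0.06, adjusted p = 0.00104). Cdt1 and its inhibitor thus differed in opposite directions between the lines.

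The replicative helicase consists of the Mcm2 to Mcm7 ring with Cdc45 and the GINS complex. Of the 10 members counted here, its subunits and the activation factor Mcm10, 8 fell, 2 did not pass and 0 rose (limma, also 0 higher at an unadjusted p under 0.05), against 25.3% lower and 24.1% higher of all features. Mcm3 had 4102, 4629, 4426 and 4397 in CT26-FL3, against 6120, 5696, 5412 and 5903 in CT26. It fell by 0.40 (SE 0.06, adjusted p = 0.000473) and by 0.42 on a second probe. Mcm4 had 3220, 3204, 3062 and 3156 in CT26-FL3 and 3907, 4068, 3480 and 3827 in CT26 and fell by 0.27 (adjusted p = 0.00354). Mcm6 had 10902, 10996, 10461 and 10617 in CT26-FL3 and 13148, 11896, 12233 and 14231 in CT26 and fell by 0.26 (adjusted p = 0.00812). The arrays of the lines did not overlap for these 3 subunits or for any of the 8 helicase members that fell. Among all features 47.4% did not overlap (24.2% lower and 23.2% higher).

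Mcm5 had 2694, 2900, 2500 and 2611 in CT26-FL3, against 3089, 3075, 2988 and 2958 in CT26 (log2 -0.18, adjusted p = 0.022). For Mcm7 the values were 5902, 5822, 5819 and 5489 in CT26-FL3 and 6191, 7012, 7132 and 6062 in CT26 (log2 -0.19, adjusted p = 0.036). Both are ring subunits whose decreases passed but were near the threshold, in 14 and 10 of the 23 alternative settings. Mcm2 was the ring subunit that did not pass: it had 1388, 1223, 1438 and 1456 in CT26-FL3 and 1236, 1255, 1269 and 1314 in CT26, overlapping values with a difference of 0.11 (-0.03 to 0.26, adjusted p = 0.163). Whether Mcm2 differed from the other subunits in its change was not tested.

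Cdc45, which joins the ring when an origin fires, had 174, 153, 167 and 160 in CT26-FL3, against 202, 189, 193 and 209 in CT26 (log2 -0.28, adjusted p = 0.00344). Of the GINS subunits, Gins1 had 596.9, 566.5, 671.4 and 576.1 in CT26-FL3 and 740.7, 757, 689.7 and 744.5 in CT26, a fall of 0.28 (adjusted p = 0.00572) and of 0.35 on its second probe. Gins2 had 636, 678, 668 and 664 in CT26-FL3 and 770, 685, 728 and 742 in CT26, a fall of 0.14 (adjusted p = 0.0393) that passed in 9 of the 23 alternative settings. Mcm10 had 1620, 1862, 1863 and 1887 in CT26-FL3 and 1868, 1834, 1683 and 1773 in CT26 and differed by 0.01 (-0.13 to 0.16).

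At the replication fork, 2 members fell, 1 rose and 3 did not pass. The share that passed (50%) was near the 49.5% of all features, of which 25.3% were lower and 24.1% higher. Pcna, the sliding clamp, had 6143, 6385, 6384 and 6221 in CT26-FL3, against 7459, 7563, 7015 and 7545 in CT26, a fall of 0.23 (SE 0.04, adjusted p = 0.00204). Rfc4, a subunit of the clamp loader, had 809, 892, 940 and 817 in CT26-FL3 and 951, 1000, 958 and 1015 in CT26, a fall of 0.18 (adjusted p = 0.031) that passed in 13 of the 23 alternative settings. Prim1, the catalytic primase subunit, was higher on all CT26-FL3 arrays, with 1097, 1162, 1146 and 1041 against 915, 972, 1012 and 981 in CT26 (log2 0.20, SE 0.05, adjusted p = 0.0143). The clamp loader subunit Rfc3 (0.09, -0.06 to 0.24), the polymerase alpha subunit Pola1 (-0.10, -0.25 to 0.05) and the leading-strand polymerase Pole (-0.13, -0.26 to -0.00) did not pass.

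Of the 4 members of deoxynucleotide supply, 3 fell, 1 did not pass and 0 rose (limma, also 0 higher at an unadjusted p under 0.05), where 25.3% of all features fell and 24.1% rose. Rrm2, the S phase subunit of ribonucleotide reductase, had 517, 528, 518 and 493 in CT26-FL3, against 648, 644, 619 and 640 in CT26, and fell by 0.31 (SE 0.04, adjusted p = 0.000321). Rrm1, the large subunit, had 2834, 3021, 3090 and 2948 in CT26-FL3 and 3510, 3132, 3516 and 3196 in CT26 and fell by 0.17 (adjusted p = 0.0368), a call that held in 10 of the 23 alternative settings. Tyms, which makes thymidylate, had 1800, 1837, 1898 and 1760 in CT26-FL3 and 2411, 2440, 2049 and 2277 in CT26 and fell by 0.33 (adjusted p = 0.00259), or 0.39 on its second probe. Thymidine kinase, Tk1, differed by -0.13 (-0.26 to 0.00, adjusted p = 0.101). Chaf1a and Chaf1b encode subunits of the chromatin assembly factor that follows the fork. Chaf1a had 1265, 1303, 1171 and 1250 in CT26-FL3 and 1560, 1432, 1547 and 1350 in CT26, a fall of 0.24 (adjusted p = 0.0113), and Chaf1b differed by -0.11 (-0.22 to 0.01).

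Several members had more than 1 probe above the detection limit, which gives a second reading of the same gene on the same arrays. Of 15 such members, 12 had the same sign on all probes and 10 the same call, and in 0 did probes pass in opposite directions. Ccnd2, Ccne2, E2f5, Gins1, Mcm3 and Tyms passed on every probe. The calls of E2f1, E2f8, Cdc6, Cdc25a and Cdk6 differed between probes.

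**Figure D3:**
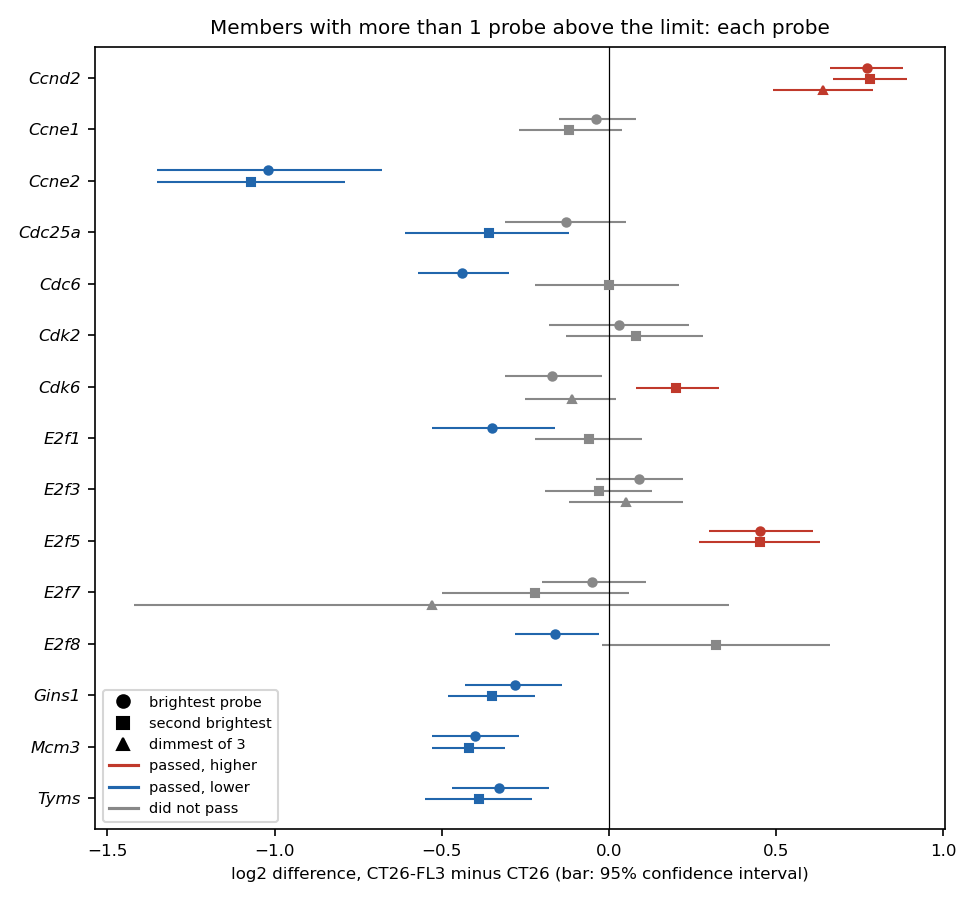
Log2 difference between CT26-FL3 and CT26 (x axis) for each probe of the 15 members with more than 1 probe above the limit (y axis), with 95% confidence intervals; the marker gives the order of brightness and the colour the call. The probes of Ccnd2, Ccne2, E2f5, Gins1, Mcm3 and Tyms lie together, while those of Cdc6 (-0.44 and -0.00) and Cdk6 (-0.17, 0.20 and -0.11) lie apart.

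Replicates 1 and 2 of each line share a number in the names of their arrays, and replicates 3 and 4 share another, so the comparison was repeated within each array set. All 27 called members kept their sign in both sets. This had to follow, because the arrays of the lines did not overlap for any of the 27. Of the called members, 14 passed within replicates 1 and 2 and 10 within replicates 3 and 4, in fits of 2 arrays against 2. E2f2 differed by -1.35 and -1.61, Ccne2 by -1.20 and -0.83 and Ccnd2 by 0.80 and 0.74. Of all features, 27.9% and 27.7% passed in these smaller fits. Among the 19 members not called, 6 had opposite signs in the sets, for instance Cdk2 (0.17 and -0.11) and Rfc3 (-0.02 and 0.20).

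**Figure D4:**
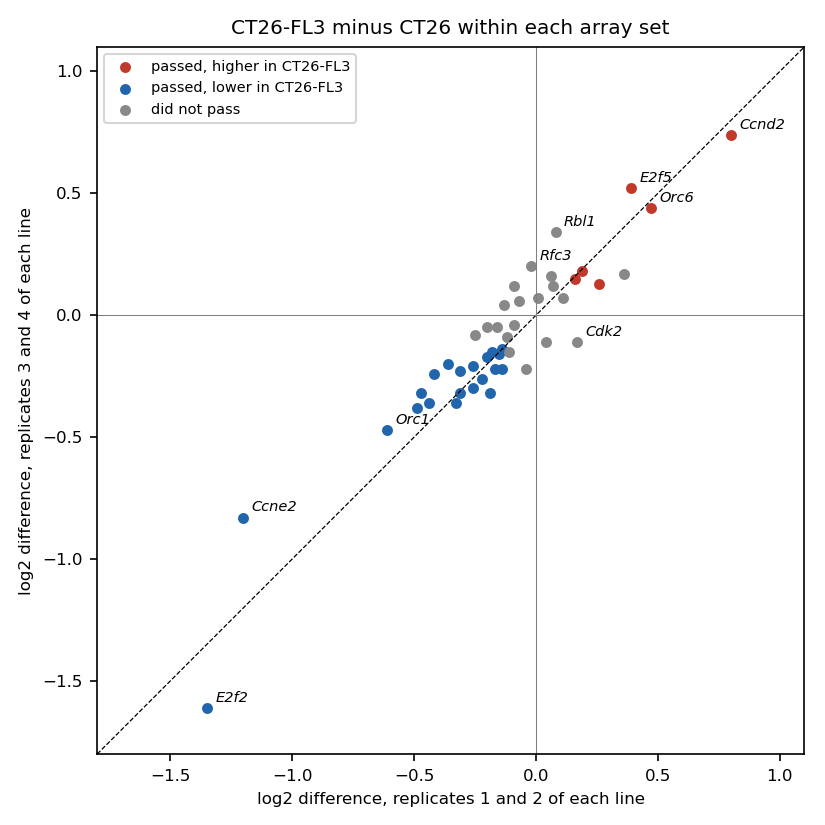
Log2 difference between CT26-FL3 and CT26 for each of the 46 members, within replicates 1 and 2 of each line (x axis) and within replicates 3 and 4 (y axis); colours give the call over all 8 arrays and the dashed line marks equal values. Called members have the same sign in both sets, which had to follow because their arrays did not overlap between the lines. Opposite signs were seen for 6 uncalled members.

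Other genes of the same processes, taken from lists drawn up from their roles, were counted beside the members. Over 7 lists with 98 genes, 94 were tested: 35 fell, 16 rose and 43 did not pass, with a median of -0.11. Among all features 49.5% passed, 25.3% lower and 24.1% higher. The passing share of these 94 genes in both directions together lay near that, but more of them fell than rose. Of 26 other fork genes 13 fell, 3 rose and 10 did not pass (median -0.17). The ribonuclease H2 subunits Rnaseh2b and Rnaseh2c fell by 0.72 and 0.55, the catalytic polymerase delta subunit Pold1 fell by 0.48 and the cohesion factor Dscc1 fell by 0.46; Rnaseh2a, the catalytic ribonuclease H2 subunit, chosen after its value was seen, rose by 0.38. Of 13 other licensing and helicase genes 4 rose, 2 fell and 7 did not pass (median 0.01), with the origin recognition subunits Orc3, Orc4 and Orc5 higher by 0.23, 0.24 and 0.18 and the fork factor Wdhd1 lower (-0.24).

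The next counts stand beside 49.5% of all features that passed, 25.3% lower and 24.1% higher. Of 5 tested CDK inhibitors out of 8, 1 rose and 3 fell. Cdkn1a, which encodes p21, rose by 0.69 (SE 0.08, adjusted p = 0.000184), Cdkn2c, which encodes p18 and blocks Cdk4 and Cdk6, fell by 0.55, Cdkn3 fell by 0.43 and Cdkn2d, which encodes p19, fell by 0.24. Cdkn2a and Cdkn2b exceeded the detection limit on 0 arrays. Of 10 tested S phase cyclin, kinase and ubiquitin ligase genes out of 11, 4 fell and 1 rose: Cdc25b fell by 0.52, the ligase subunit Skp2, which targets p27, fell by 0.48, the inhibitory kinase Wee1 fell by 0.44 and the APC/C inhibitor Fbxo5 rose by 0.33. Of 7 E2F partner and pocket protein genes 2 fell and 1 rose: the E2F partner Tfdp2 and the DREAM complex gene Lin54 fell by 0.29 each, and the partner Tfdp1 rose by 0.20.

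Of 11 other nucleotide supply genes 3 rose and 4 fell (median 0.09). Mitochondrial thymidine kinase, Tk2, rose by 0.54, the p53-induced reductase subunit Rrm2b by 0.38 and the deaminase Dctd by 0.32, while thymidylate kinase, Dtymk, fell by 0.41. Of 22 other E2F targets 3 rose and 7 fell (median -0.09). The histone methyltransferase Ezh2 rose by 0.52, the uracil glycosylase Ung fell by 0.47 and Uhrf1, which guides maintenance methylation, fell by 0.42. Of 26 G2/M and mitotic genes 12 fell, 0 rose (limma, with 1 higher at an unadjusted p under 0.05) and 14 did not pass (median -0.19). The share that passed was no larger than the 49.5% of all features. By direction, all of these calls were lower, where 25.3% of all features were lower and 24.1% higher. The median of this list lay further below 0 than that of the members (-0.13). Cyclin B1, Ccnb1, and the kinetochore gene Nuf2 fell by 0.36 each, Cdc25c fell by 0.31 and survivin, Birc5, fell by 0.29.

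**Figure D5:**
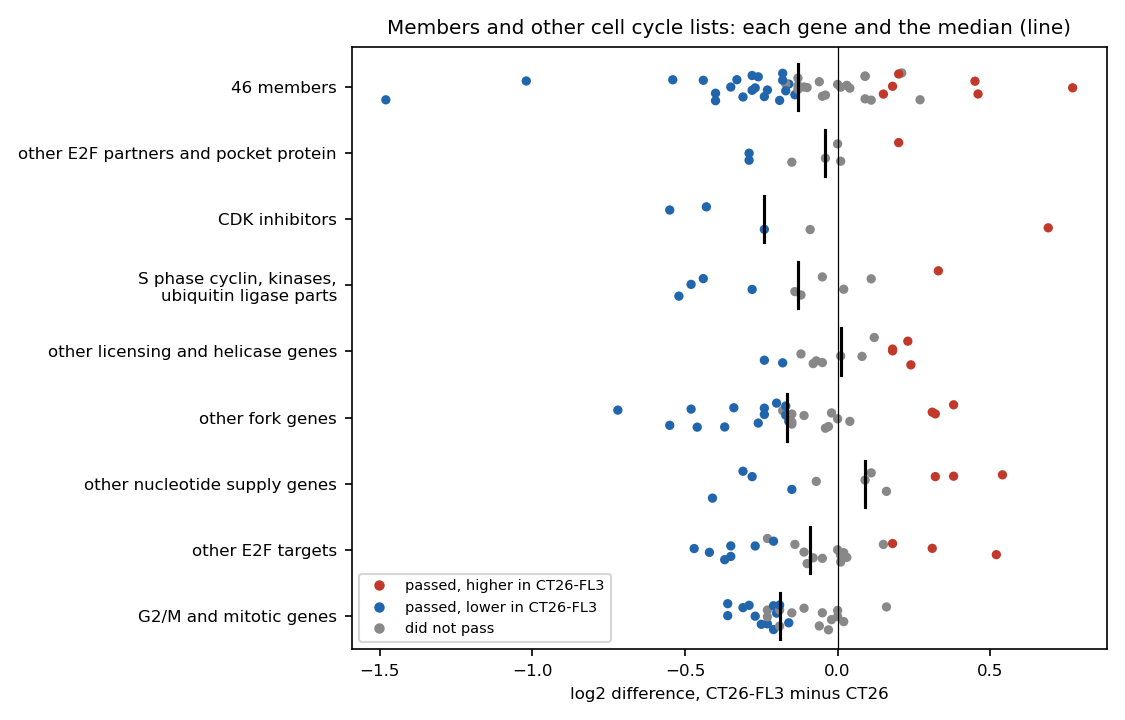
Log2 difference between CT26-FL3 and CT26 (x axis) for each tested gene of the 46 members and of 8 other cell cycle lists (y axis), coloured by call, with the median of each list as a black line; points are spread vertically for legibility. Medians run from -0.24 for CDK inhibitors to 0.09 for other nucleotide supply genes, and E2f2 at -1.48 is the leftmost gene shown.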

How the data were processed

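Gene expression was measured on 1-colour Agilent arrays in 4 CT26-FL3 and 4 CT26 samples, with groups and replicate numbers from the labels' sample names. The submitters' processing notes name Agilent Feature Extraction. For each array the authors deposited intensity values of 45018 spots; negative controls (medians 2.23 to 7.43) lay under the background column (21.1 to 24.4), so background had been subtracted already, and the intensity was used where a processed signal had been planned. A further table deposited by the authors holds log2 values centred per probe, and its columns correlated with the arrays at r from 0.990 to 0.996 (10261 bright probes); its exact normalization is unknown. Its column medians were 0.00, 0.00, 0.02 and 0.00 in CT26-FL3 replicates 1 to 4 and -0.01, 0.00, -0.01 and 0.02 in CT26 replicates 1 to 4.

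Control spots (1639) and failed spots (3 to 76 gene spots per array, 0 of member probes) were left out, spots of a probe averaged as log2 and each array's 75th percentile (808 to 1151 units) subtracted. A probe was kept if it exceeded 2.6 times the negative controls' median standard deviation (16.9 to 23.2 units) on at least 4 of 8 arrays. Each gene was read from its brightest kept probe. The comparison used limma 3.58.1 (R 4.3.3, two-sided, Benjamini-Hochberg over 15097 features, threshold 0.05), and the fit was tested on simulated data. There it recovered 14% of log2 changes of 0.25, 66% of -0.5, 94% of 1 and 96% of -1.5, with 10 false calls. Only 200 features were changed in the simulation, far fewer than passed here, so recovery in the real data may differ. Other probes were fitted over 23068 kept probes. Fold changes are CT26-FL3 over CT26; the number of arrays limits the precision. Names came from the array's own column (71 member probes) or the platform table (3). Members and lists were chosen with earlier results of these data known. All members are reported, with every array's value for those that passed and in each other list up to 4 genes of largest change that passed. A gene that this rule names in the list of other E2F targets is not reported here. Alternatives covered scaling, background, filters, probe choice, the authors' table, array sets, replicate blocks and left-out arrays. Same-numbered samples of the lines had deviations correlated at 0.006 to 0.165 by sample name and -0.214 to 0.172 by title. Differently numbered samples gave -0.243 to 0.23 in either numbering, and numbers were not taken as pairs. Samples of the same array set gave 0.006 to 0.23, and those of different sets -0.243 to 0.092. The main fit had no block. With the array set as a block, 20 members fell and 6 rose.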

Additional observations from a re-analysis of the deposited data

Results flagged for a closer look

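In 4 of the 92 sets of 4 arrays (46 members in each line), 1 array lay far from the other 3 by Dixon's ratio of gap to range. Chance gives this in about 1 in 20 sets. E2f1 in CT26 replicate 3 had a relative intensity of 534, against 421 to 436 on the other CT26 arrays; without that array E2f1 still passed. Cdc25a in CT26 replicate 2 had 40.1, against 48.3 to 50.1, and without it the difference between the lines was -0.21 (limma adjusted p = 0.0149), which passed. Mcm10 in CT26-FL3 replicate 1 had 1620, against 1862 to 1887 on the other CT26-FL3 arrays. Rfc3 in the same replicate had 264, against 302 to 309. Neither passed without that array. The cause of these values was not tested.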

How the results depend on the processing

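E2f2, E2f5, Ccnd2, Ccne2, Orc1, Orc6, Cdc6, Gmnn, Mcm3 and Rrm2 kept their direction and passed in all 23 alternatives. The other 17 called members kept their direction but for E2f8, which was 0.08 with the mean of its probes. No alternative read the dimmer Cdc6 probe alone, which differed by -0.00 (limma adjusted p = 0.979 among the kept probes). With the mean of its probes Cdc6 differed by -0.22. With quantile normalization, as with the authors' table, 18 members fell and 8 rose, while 50.3% and 50% of all features passed. With median centring 16 members fell and 5 rose, while 42.1% of all features passed. Within replicates 1 and 2, 11 members fell and 4205 features passed; within replicates 3 and 4, 7 fell, 3 rose and 4183 features passed, in fits of fewer arrays. With the replicate block by sample-name number 17 fell, 5 rose and 6932 features passed. With the replicate block by title number, on 6 arrays, 11 fell, 3 rose and 5575 features (36.9%) passed. With the sample-name block 45.9% of all features passed, against 49.5% without a block. Whether a call lost under a block reflects a weaker effect was not tested. Without a filter on dim probes 5855 of 26853 features passed, with 15 members lower and 4 higher. Leaving out 1 array gave 15 to 19 members lower, 5 to 7 higher, medians from -0.15 to -0.12 and 6808 to 7123 features. Calls lost in this way, with differences from -0.21 to -0.12 or, for Ccnd1, 0.12 to 0.15, were those of Gins2 without any array but CT26 replicate 2 (adjusted p 0.0552 to 0.0999), Mcm7 without any array but CT26 replicates 1 and 4 (0.0545 to 0.0901), Rrm1 without CT26-FL3 replicate 1, 2 or 4 or CT26 replicate 1 or 3 (0.0614 to 0.094), and E2f8 without CT26-FL3 replicate 1 or 4 or any CT26 array (0.0597 to 0.0925). Further calls lost were those of Rfc4 without CT26-FL3 replicate 1 or 4 or CT26 replicate 2 or 4 (0.0662 to 0.0805), Ccnd1 without CT26-FL3 replicate 2 or 3 or CT26 replicate 3 or 4 (0.0512 to 0.0615) and Mcm5 without CT26-FL3 replicate 3 or 4 or CT26 replicate 1 (0.0554 to 0.0568). Calls gained were those of Mcm2 without CT26-FL3 replicate 2 (0.0214), E2f4 without CT26-FL3 replicate 4 (0.0201), Rbl1 and Cdc25a without CT26 replicate 2 (0.0193 and 0.0149) and Cdk6 without CT26 replicate 3 (0.0221). All p-values here are adjusted, from limma. The cause of these changes was not tested.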
